A study of Drosophila melanogaster with 72 samples.

Results

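Photoreceptor transcripts in dissected brains were followed through 10 genes of the fly eye. The genes ninaE, Rh3, Rh4, Rh6, norpA, trp, trpl, inaD, Arr1 and Arr2 were taken by name from the 13898 genes listed, and all 10 were found under their own symbols. Their FlyBase identifiers were FBgn0002940, FBgn0003249, FBgn0003250, FBgn0019940, FBgn0262738, FBgn0003861, FBgn0005614, FBgn0001263, FBgn0000120 and FBgn0000121, in that order. Exons of inaD share 7 bases with those of the ribosomal protein gene RpL23 in the Ensembl annotation of the BDGP6 assembly, so a few reads there could be split between them.

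Compound-eye photoreceptors of Drosophila melanogaster detect light with opsins, receptors that carry a retinal chromophore. ninaE encodes the main opsin of the outer photoreceptors of each eye unit, Rh3 and Rh4 the opsins of one class of inner photoreceptor, and Rh5 and Rh6 those of the other. Rh2 is the opsin of the ocelli, simple eyes on top of the head, and Rh6 is also known from the eyelet, a small extraretinal photoreceptor organ beside the optic lobe. Activated opsin drives norpA, a phospholipase C. Its product opens the cation channels trp and trpl, inaD is the scaffold that holds channel and phospholipase together, and the arrestins Arr1 and Arr2 bind activated opsin and end the response. These cells release histamine onto neurons of the lamina, the first optic neuropil. The retina is normally taken off when a fly brain is dissected. Rh2 and Rh5, which are not among the 10 genes, served as references for ocelli and for compound eye.

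RNA of whole brains was sequenced in 72 libraries, 24 groups of 3 biological replicates, each from 15 pooled brains. Flies of the strain iso31 were dissected undisturbed at zeitgeber time (ZT, hours after lights on) 0, 4, 8, 12, 16 or 20 in a light-dark cycle at 25 °C, or at ZT0 after 3, 6 or 12 h of sleep deprivation by a vortexer. The other 45 libraries came from R21H11, R65H02, HC (hot cell), R60F09 and R85C10, GAL4 lines that drive the heat-activated channel TrpA1 in chosen neurons. Each line had 3 groups: GAL4 with UAS-TrpA1 shifted to 29 °C (TrpA1 29C), the same genotype kept at 21 °C (TrpA1 21C), and GAL4 without UAS-TrpA1 shifted to 29 °C (GAL4 control 29C). The labels call the first 4 lines wake-promoting, with a shift of 3 h that ended at ZT0. For R85C10 the protocol describes sleep promotion with a daytime shift of 12 h that ended at ZT12, while its titles read sleep deprivation. Age and sex are not in the labels used here. Total estimated counts ran from 4175587 to 13435817 per library, with a median of 8437310. Levels below are in TPM, transcript abundance corrected for transcript length and scaled to a common total, and fold changes come from the estimated counts.

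Eye genes were present in every group, and 7 of the 72 libraries held far more of the opsin genes than the other 65. These 7 were picked by Rh5, as the libraries where its count scaled to the library total was over 5 times the median. Rh5 had 425 to 1166 counts in them and 11 to 71 in the other 65, a separation that follows from this choice. The 7 were replicate 2 at ZT0, ZT8, ZT16 and ZT20, replicates 1 and 2 at ZT12, and replicate 2 of the 3 h shaken flies. Of the 7, 6 carried replicate number 2, and 0 of the 45 libraries of the GAL4 lines were among them. No label or header names a dissection day or a sequencing batch.

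ninaE set these 7 libraries apart most clearly. Its TPM was 2115 at ZT0, 3359 at ZT8, 1943 and 4287 at ZT12, 1274 at ZT16, 2351 at ZT20 and 3153 after 3 h of shaking. In the other 65 libraries ninaE lay between 0 and 66.6 TPM, so the ranges did not come near each other. The 3 libraries of ZT4, with 11.6, 7.45 and 6.44 TPM, all belonged to the low range, and ZT4 was the only undisturbed time without a high library.

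Rh3, Rh4 and Rh6, the opsins of the inner photoreceptors, split the libraries in the same way. Rh3 was at 82.5 to 204 TPM in the 7 libraries and at 1.11 to 6.36 in the 65. Rh4 was at 43.7 to 185.1 and at 0.227 to 14.4 TPM, and Rh6 at 70.0 to 237.4 and at 0 to 14.0 TPM. For ninaE, Rh3, Rh4, Rh6 and trp, 0 of the 65 libraries reached the lowest count seen in the 7.

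Apart from trp, the genes that act after the opsins overlapped between the 7 libraries and the rest. The channel trpl had 1152 to 6767 counts in the 7 and 11 to 1701 in the 65, of which 2 reached the lower of these limits. Arr1 had 2757 to 8087 against 22 to 3859 counts, with 4 libraries reaching the limit. For Arr2, with 5488 to 17231 against 31 to 9798 counts, 9 did so, and for inaD, with 200 to 973 against 23 to 304, 5 did. norpA had 5213 to 8194 counts in the 7 and 1646 to 7349 in the 65, of which 15 reached the lower limit. Rh2 did not follow the split at all: 47 of the 65 libraries were at or above the lowest of the 7. These counts are not scaled to the library total, and the numbers of libraries that reach a limit can shift with scaling.

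**Figure D1:**
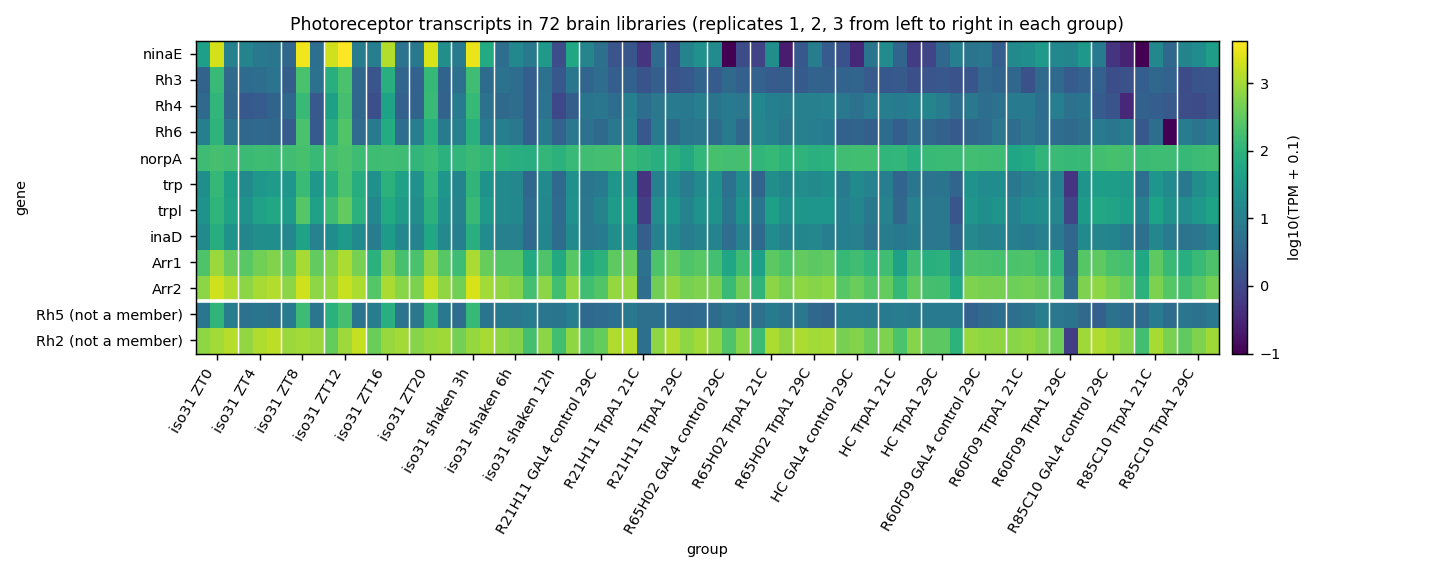
Levels of the 10 genes with Rh5 and Rh2 in all 72 libraries, as log10(TPM + 0.1), with 1 row per gene and 1 column per library in the order of the groups. The 7 libraries high in Rh5 show as columns with bright opsin rows, while the Rh2 row is high in most columns.

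Other eye markers moved with these 7 libraries to different degrees. The lens and corneal genes retinin and Cpr72Ec had 16 to 173 and 59 to 483 counts in the 7, against 0 to 4 and 0 to 6 in the 65. Crys, another lens gene, stayed at 0 to 2 and 0 to 5 counts. Pdh, a retinol dehydrogenase of the retinal pigment cells, had 186 to 1429 against 21 to 486 counts, and chp (chaoptin), an adhesion protein of photoreceptors, had 577 to 1881 against 8 to 443. Sums over whole lists of eye genes, in CPM (counts scaled to the library total), overlapped between the 7 and the 65. For 13 eye structure genes, Pdh among them, the sum was 158.6 to 356.9 in the 7 and 108.1 to 251.6 in the 65. For 12 photoreceptor genes, chp among them, it was 3437 to 4343 and 1897 to 4129 CPM. For 8 genes of the histamine cycle it was 196.8 to 404.1 and 156.1 to 359.2 CPM. The summed level of 8 markers of lamina neurons was 1040 to 1212 CPM in the 7 and 690 to 1274 in the 65. For 8 pan-neuronal genes it was 11190 to 13360 and 7417 to 14710 CPM, and for 8 muscle genes 19.6 to 449.3 and 7.42 to 156.5 CPM. In such pools, fewer cells of a type and less RNA per cell cannot be told apart. The part of dissection in these differences was not tested.

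**Figure D2:**
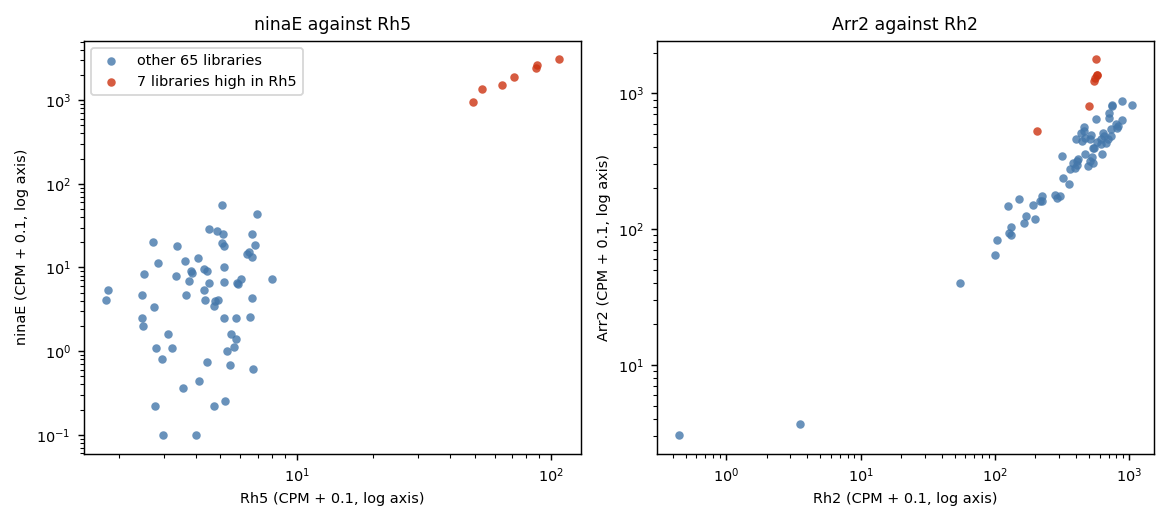
Each point is 1 of the 72 libraries, with ninaE against Rh5 on the left and Arr2 against Rh2 on the right, as CPM + 0.1 on log axes. The 7 libraries high in Rh5 (red) lie apart from the other 65 in ninaE, and Arr2 falls with Rh2 down to the 2 libraries with 30 and 4 counts of Rh2.

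Even among the 65 libraries the genes did not vary freely. To describe this, log2 CPM was centred on the group mean, which leaves 64 libraries once the ZT12 library without a partner is left out. trp, trpl, inaD, Arr1 and Arr2 formed one tight set: their 10 pairs had Pearson's r of 0.899 to 0.992, with a median of 0.973. Pairs of opsins had lower r, of 0.131 to 0.389, and opsins paired with these 5 genes 0.273 to 0.398. Rh4 with Rh6 was at 0.374 (permutation test, adjusted p = 0.011). Opsin counts in the 65 libraries were low, with medians of 39 for ninaE, 14 for Rh3, 27 for Rh4 and 28 for Rh6. Arr2 had a median of 2902. Such low counts limit what the correlations of the opsins can show, and separate variation of the opsins cannot be read from them. norpA had r of -0.01 to 0.32 across its 9 pairs.

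The 5 tightly linked genes followed Rh2, the ocellar opsin. Over the 64 libraries, Arr2 had Pearson's r of 0.985 and Spearman's rho of 0.991 with Rh2, and without the 2 libraries farthest from the median r was 0.986. Arr1 had r of 0.978, trp 0.954, trpl 0.945 and inaD 0.846. Permutation tests shuffled replicates within groups, with Benjamini-Hochberg adjustment over the 20 relations with Rh2 and Rh5. All 5 genes had an adjusted p of 4e-05 (permutation test). Their unadjusted p was 1e-05, the smallest that 100000 resamples allow. The 4 opsins had r with Rh2 of 0.251 to 0.360 (adjusted p = 0.052 to 0.104, permutation test), and norpA 0.187 (adjusted p = 0.374). With Rh5, the 10 genes had r from -0.157 for Rh4 to 0.348 for Rh6, with adjusted p of 0.14 to 0.943. All of these values share library and depth. Rh5 and the 4 opsins had few counts in the 64 libraries, which limits what their correlations can show.

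**Figure D3:**
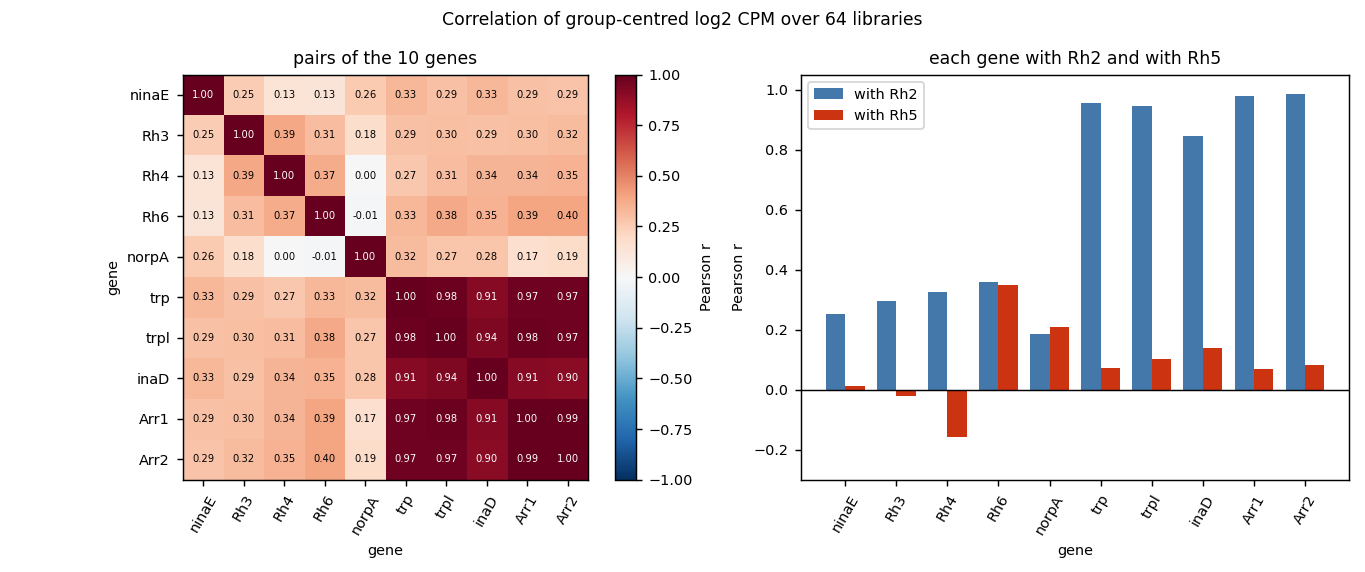
Pearson's r of group-centred log2 CPM over 64 libraries, for the 45 pairs of the 10 genes on the left and for each gene with Rh2 and Rh5 on the right. trp, trpl, inaD, Arr1 and Arr2 form a block of high values and have the highest bars with Rh2, from 0.846 to 0.985.

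A pair of libraries showed the low end of this shared variation. In replicate 2 of R21H11 TrpA1 21C, Rh2 had 30 counts, Arr2 31, Arr1 33, inaD 27, trpl 11 and trp 8. In replicate 2 of R60F09 TrpA1 29C, Rh2 had 4 counts, Arr2 34, Arr1 22, inaD 40, trpl 17 and trp 9. Arr2 was at 4.48 TPM in both, against a median of 471.1 over the 65 libraries. Rh5 had 35 and 43 counts there, within the range of the others, and norpA had 4033 and 5313. ninaE had 3 counts in the first and 104 in the second. Summed over the 10 genes, the level was lowest in the first of these libraries, at 126.3 TPM, and highest in replicate 2 of ZT12, at 8645 TPM.

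The genes with the most similar profiles differ accordingly. Over 72 libraries and 8291 genes, the mean of the 10 was most like chp (r = 0.953), boss, the ligand by which one photoreceptor recruits its neighbour (0.912), rtp (retinophilin, 0.885), Cpn (calphotin, a calcium-binding protein of photoreceptors, 0.883) and Pdh (0.881), values that rest in part on the 7 libraries. Over the 64 libraries, Arr2 was most like Gbeta76C, the eye form of the G protein beta subunit (0.991), Rh2 (0.985), the protein kinase C inaC (0.974), t (tan, which frees histamine from its conjugate, 0.964) and the photoreceptor myosin ninaC (0.959). ninaE was most like CG2145 (0.770), CG4721 (0.732) and b (black, 0.729).

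Within a group, 1 replicate often held the maximum of many of these genes at once. This was so for at least 8 of the 10 genes in 12 of the 24 groups and for all 10 in 6 groups. Those 6 were the groups that hold the 7 libraries, each with its maximum in replicate 2. In the other 18 groups, 1 replicate held the maximum of at most 9 genes, and of at least 8 in 6 of them. The spread within groups was correspondingly wide, and differed by gene. Without the 7 libraries the SD within groups on the log2 scale was 1.75 for ninaE and 1.43 for Arr2, but 0.49 for Rh4. For norpA it was 0.141 over all 72. Without the 7 libraries, groups held 85.5% of the variance of Rh4, 82.4% of that of norpA, 65.7% of that of Rh6 and 62.9% of that of Rh3, where their degrees of freedom alone would give 35.9%. For trp, trpl, inaD, Arr1, Arr2 and ninaE the share was 41.0% to 47.8%.

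Across the 24 groups all 10 genes passed the test for a difference (edgeR quasi-likelihood F-test, adjusted p under 0.05), but 88.4% of the 9638 genes tested did so as well. In order of mean TPM, neighbouring groups differed by more than the larger of their SDs at 0 of 23 steps for ninaE, Rh3, norpA, Arr1 and Arr2. For the others this was so at 1 or 2 steps. The highest group was ZT12 for ninaE, with 2080 ± 2142 TPM (SD, n = 3), an SD larger than the mean. Arr2 was highest at ZT0, with 1295 ± 652.9, and lowest in HC TrpA1 29C, with 139.2 ± 66.8 TPM. norpA ran from 76.5 ± 27.5 TPM in R60F09 TrpA1 21C to 185.1 ± 5.93 in the R65H02 GAL4 control, and had the smallest ratio of highest to lowest library among the 10.

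Over the day, none of the 10 genes passed the test among the 18 undisturbed libraries (edgeR, adjusted p = 0.27 to 0.867), where 15.1% of 9242 genes did. At an unadjusted p under 0.05 the count was also 0 of 10, with DESeq2 0 after adjustment and 2 before, and with limma on log2 TPM 1, norpA (adjusted p = 0.0157), where 39% of genes passed. Of 23 other phototransduction genes 1 passed, of 8 pan-neuronal genes 3 and of 8 genes of the histamine cycle 0. The 7 libraries high in Rh5 include 6 of these 18, at every time but ZT4, so the opsin values of each such time spanned both ranges.

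Without these libraries, Rh6 alone of the 10 genes differed over the day, with the lowest level in the afternoon. Rh6 was at 10.05 and 6.13 TPM at ZT0, at 3.61, 3.81 and 3.43 at ZT4, at 2.09 and 1.98 at ZT8, at 3.99 at ZT12, at 7.98 and 4.65 at ZT16 and at 9.38 and 7.93 at ZT20. Both libraries of ZT8 lay below the other 10, and the 3 of ZT4 below those of ZT0, ZT12, ZT16 and ZT20. The levels spanned 2.39 on the log2 scale (edgeR, adjusted p = 0.0072), where 5.79% of 9416 genes passed. These values rest on 12 to 66 counts per library, and ZT12 on 1 library, which is taken to vary like the other groups. Leaving out the 7 libraries was chosen after seeing the data, and with Rh2 and Rh5 as covariates in all 18 libraries Rh6 did not pass (adjusted p = 0.999).

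In undisturbed iso31 flies, the ratios of inaD, trpl and Arr2 to trp within a library varied with zeitgeber time. The ratio of inaD to trp in TPM was 0.799, 0.619 and 0.568 at ZT0, 0.825, 0.638 and 0.555 at ZT4, 0.515, 0.339 and 0.380 at ZT8, 0.216, 0.167 and 0.212 at ZT12, 0.405, 0.376 and 0.328 at ZT16, and 0.530, 0.516 and 0.559 at ZT20. The 3 libraries of ZT12 lay below all 15 others, whether high in Rh5 (replicates 1 and 2) or not (replicate 3). The ratio of trpl to trp was 1.16, 0.870 and 1.08 at ZT0, 1.46, 1.53 and 1.55 at ZT4, 1.31, 1.85 and 1.52 at ZT8, 1.89, 1.64 and 1.16 at ZT12, 0.679, 0.738 and 0.802 at ZT16, and 0.888, 0.797 and 0.818 at ZT20. The light phase libraries from ZT4 to ZT12 were thus at 1.16 or more and those of ZT16 and ZT20 at 0.888 or less. Arr2 relative to trp was 9.32, 8.82 and 14.8 at ZT12 and 12.4, 12.1 and 14.2 at ZT16, against 14.1 to 41.4 at the other 4 times, so these overlapped slightly. The GAL4 lines did not show the same low ratio at ZT12 throughout. In R85C10, dissected at ZT12, inaD to trp was 0.258 to 0.314 in the GAL4 control, 0.347 to 0.801 in TrpA1 29C and 0.535 to 1.03 in TrpA1 21C, which reached the values of iso31 at ZT0. Group means of trpl to trp ran from 0.894 to 1.87 in the 4 lines dissected at ZT0 and from 1.38 to 1.93 in R85C10, so they overlapped. These lines differ from iso31 in genotype and temperature. All of these ratios have trp as denominator, so a change in trp alone would move each of them. The ratios were chosen after their values were seen and carry no test.

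**Figure D4:**
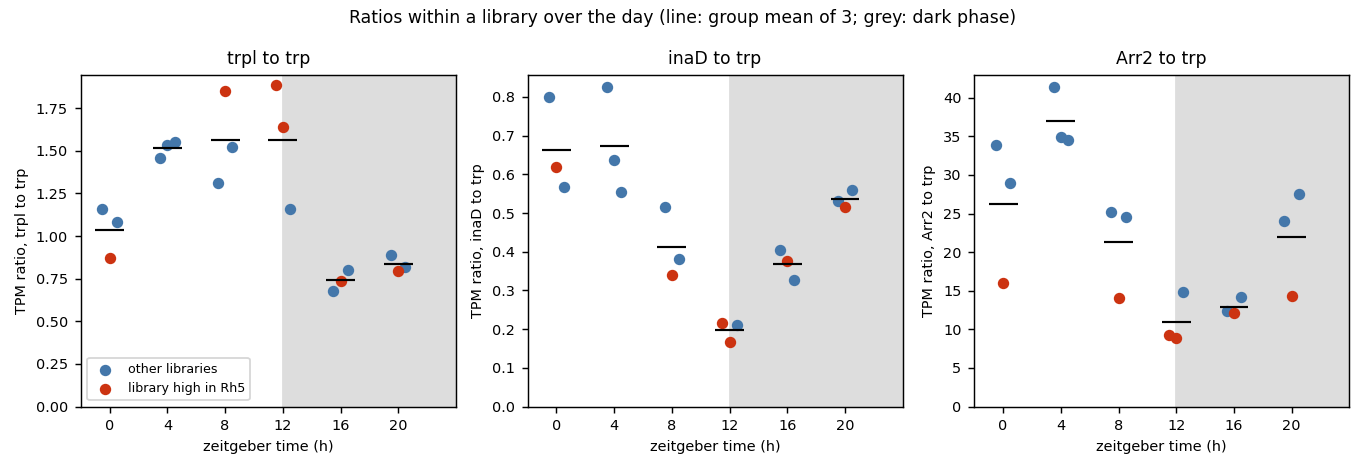
Ratios of trpl, inaD and Arr2 to trp in TPM, 1 point per undisturbed library, against zeitgeber time in hours, with lines at the means of 3, the dark phase shaded and the libraries high in Rh5 in red. inaD relative to trp is lowest at ZT12 (0.167 to 0.216), and trpl relative to trp is lower at ZT16 and ZT20 than from ZT4 to ZT12.

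A separate question is whether a gene differed over the day at a given level of Rh2 and Rh5, which is not a test of these ratios. In a fit with log2 CPM of Rh2 and Rh5 as covariates, also chosen after seeing the data, Arr1 (adjusted p = 0.00029), inaD (0.00061), Arr2 (0.0011), trpl (0.010), trp (0.033) and norpA (0.0413) passed over zeitgeber time in edgeR, where 23.1% of 9242 genes passed. The 4 opsins did not. Relative to ZT0, trpl was higher by 0.48 at ZT4, 0.65 at ZT8 and 1.24 at ZT12 on the log2 scale, and at -0.12 at ZT16 and -0.33 at ZT20. inaD was at -0.68 at ZT8, -1.02 at ZT12 and -0.54 at ZT16. trp itself was at -0.18 at ZT4, 0.02 at ZT8, 0.71 at ZT12, 0.38 at ZT16 and -0.02 at ZT20. Arr1 was at 0.52 at ZT4 and -0.58 at ZT16, and Arr2 at -0.54 at ZT16. With an index of 12 other photoreceptor genes as the covariate instead, trp (9.9e-08), Arr1 (0.0018), trpl (0.0044) and inaD (0.0055) passed in edgeR, where 15.5% of genes did. Either covariate is itself an eye transcript and could carry its own daily change.

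After sleep deprivation by shaking, no opsin, channel, scaffold or arrestin gene passed the test. Of 30 tests against undisturbed ZT0, 1 passed, where 23.6% of 8845 genes passed at 3 h, 46.1% at 6 h and 16.3% at 12 h. That 1 was norpA at 6 h. norpA was at 159, 183.1 and 164.4 TPM at ZT0 and at 93.2, 84.5 and 75.6 after 6 h, without overlap. It fell by 0.58 on the log2 scale (SE 0.109, edgeR adjusted p = 0.0011), and was at -0.23 (SE 0.108) at 3 h and -0.32 (SE 0.108) at 12 h. Without the 7 libraries it passed at all 3 durations, at -0.31, -0.52 and -0.25 (edgeR adjusted p = 0.0177, 5.7e-05 and 0.0363), where 15%, 41.2% and 10.8% of 8860 genes passed.

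norpA has the longest exons of the 10 genes, 8296 bases in that annotation against 1349 to 4149 for the others, and in these libraries the counts of long genes moved together. With a per-library trend of expression on gene length taken out, norpA was at 0.01, -0.06 and -0.12 at 3, 6 and 12 h, and none of the 30 tests passed (edgeR, adjusted p = 0.736 at 6 h), where 2.67%, 12.6% and 0.984% of genes passed. Without that correction, 7 of 8 pan-neuronal genes fell at 3 h, 7 at 6 h and 6 at 12 h, where 23.6%, 46.1% and 16.3% of genes passed. Of 23 other phototransduction genes, 7, 9 and 6 fell in the same uncorrected fit, with 1 higher at 6 h. What lies behind the trend with length was not tested.

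With Rh2 and Rh5 as covariates, trp (-0.74, SE 0.106), trpl (-0.69, SE 0.132) and inaD (-0.66, SE 0.133) also fell at 6 h, with edgeR adjusted p of 2.2e-05, 0.00099 and 0.00053, where 43.8% of genes passed. Arr1 was at 0.09 there. With the index as the covariate these 3 were at -0.10, -0.05 and -0.06 and did not pass, while Arr1 rose by 0.42, 0.64 and 0.32 at 3, 6 and 12 h and Arr2 by 0.39 at 6 h (edgeR adjusted p = 0.0414 for Arr2), where 25.3%, 38.6% and 7.12% of genes passed at the 3 durations. Which transduction genes were called after shaking thus depended on the eye transcripts used as the reference.

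In the GAL4 lines the opsins were at the low range throughout, and most of the 10 genes did not differ between the groups of a line. TrpA1 29C against TrpA1 21C gave 2 calls of 49 tests, where 18.7% of genes passed in R85C10, 44.7% in R60F09, 33.5% in HC, 30.3% in R65H02 and 3.03% in R21H11. TrpA1 29C against the GAL4 control gave 5 of 49, with 1.44%, 0.247%, 0.989%, 53.8% and 47.2% of genes in the same order of lines. The GAL4 control against TrpA1 21C gave 6 of 49, with 9.02%, 48.9%, 33.4%, 48.3% and 16.5%. Rh4 in R85C10 was too low to test. These 3 comparisons share their groups pairwise, and the GAL4 control differs from the other groups in genotype as well.

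Of these 13 calls, 6 were norpA, 5 of them between the GAL4 control and a group with UAS-TrpA1. In each of the 5 lines, all 3 GAL4 control libraries had more norpA than any library of TrpA1 21C or TrpA1 29C. In R65H02 norpA was at 190.6, 178.8 and 185.9 TPM in the GAL4 control, at 109.9, 128 and 96.7 in TrpA1 21C and at 102.7, 87.5 and 90.1 in TrpA1 29C. Against the GAL4 control, TrpA1 29C was lower by 0.62 on the log2 scale (SE 0.069, edgeR adjusted p = 1.3e-05). With the length trend taken out the same difference was 0.08, and in R21H11 it turned from -0.52 to 0.33 (edgeR adjusted p = 0.045). The other norpA calls likewise changed sign: the GAL4 control against TrpA1 21C went from 0.35 to -0.09 in HC, from 0.64 to -0.06 in R60F09 and from 0.45 to -0.02 in R65H02, and TrpA1 29C against TrpA1 21C in R60F09 from 0.36 to -0.19. Without 1 replicate, 4 of the 6 also lost the call: R21H11 without replicate 1 (edgeR adjusted p = 0.122), HC without replicate 1 (0.069) or 2 (0.062), the R60F09 control against TrpA1 21C without replicate 2 (0.054), and TrpA1 29C against TrpA1 21C in R60F09 without replicate 1 (0.289) or 2 (0.202).

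Rh4 and Rh6 were lower in the GAL4 control of R65H02 than in the groups that carry TrpA1. Rh4 was at 5.84, 8.47 and 6.84 TPM in the GAL4 control, at 14.4, 9.996 and 8.98 in TrpA1 21C and at 10.4, 10.4 and 11.3 in TrpA1 29C, without overlap between the control and the others. TrpA1 29C was higher than the control by 0.97 (SE 0.240, edgeR adjusted p = 0.0041), and the control lower than TrpA1 21C by 0.95 (0.0055). Rh6 was at 4.26, 8.31 and 3.41 TPM in the control, at 14.0, 10.7 and 6.80 in TrpA1 21C and at 10.1, 9.47 and 8.12 in TrpA1 29C, with overlap. Its differences were 1.15 (SE 0.321, adjusted p = 0.0084, edgeR) and -1.25 (0.0060). Of 9020 genes, 53.8% passed for TrpA1 29C against the control and 48.3% for the control against TrpA1 21C. The calls thus do not set Rh4 and Rh6 apart from other genes. In R65H02 these opsins rest on 11 to 93 counts per library. Both calls against TrpA1 21C were lost without replicate 1 (adjusted p = 0.117 and 0.103), and all 4 in a fit over the 72 libraries. With the length trend taken out, the differences of TrpA1 29C from the control were 0.65 for Rh4 and 0.86 for Rh6 and did not pass.

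**Figure D5:**
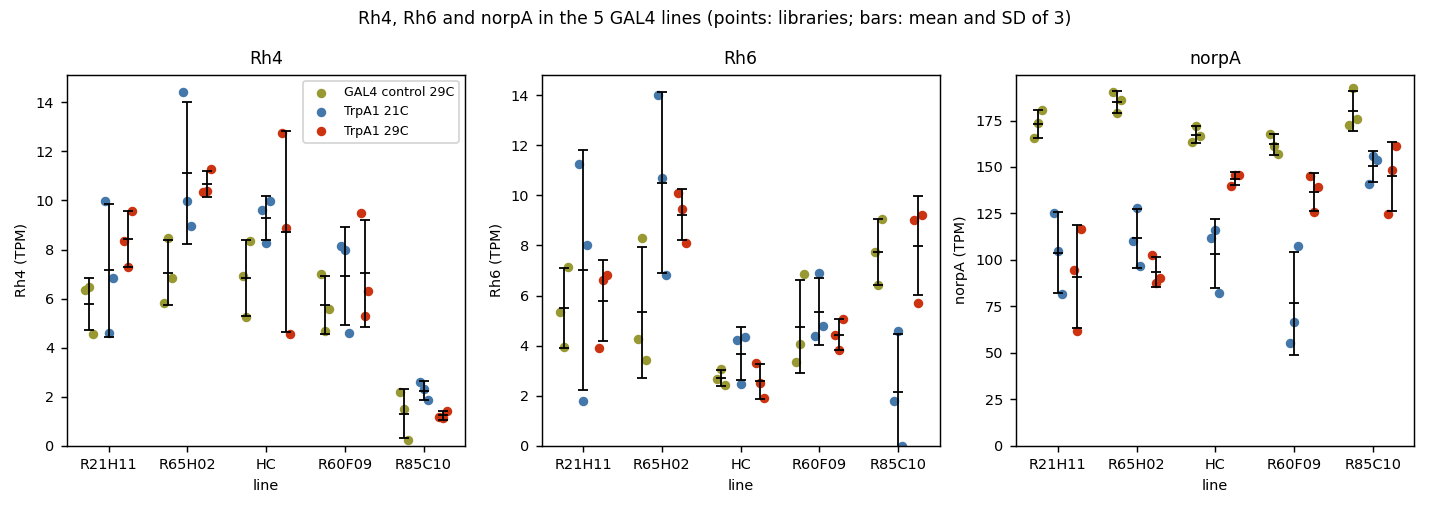
TPM of Rh4, Rh6 and norpA in the 45 libraries of the 5 GAL4 lines, 1 point per library, with the mean and SD of the 3 libraries in each group and the 3 groups of a line side by side. Rh4 is lowest in R85C10 (0.227 to 2.60 TPM), and norpA is highest in the GAL4 control of every line.

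In R21H11, Rh4 was at 6.34, 6.47 and 4.56 TPM in the GAL4 control and at 8.36, 7.30 and 9.58 in TrpA1 29C. The difference was 0.98 (SE 0.308, edgeR adjusted p = 0.0233), where 47.2% of genes passed. The call was lost without replicate 1 (0.0599) and without replicate 3 (0.188), with the length trend taken out (0.241), with Rh2 and Rh5 as covariates (0.516), with limma on log2 TPM (0.168) and in the fit over the 72 libraries (0.562). Rh4 in R85C10 stayed at 0.227 to 2.60 TPM in its 9 libraries, with group means of 1.23 to 2.25, while group means in the other 4 lines were 5.75 to 11.1 TPM. R85C10 differs from them in line and in time of dissection, which cannot be told apart here, and this difference was not tested.

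ninaE differed in R60F09. It was at 5.99, 6.543 and 2.30 TPM in the GAL4 control, at 15.5, 20.4 and 30.3 in TrpA1 21C and at 14.5, 13.3 and 29.5 in TrpA1 29C, and the control did not overlap with either. The control was lower than TrpA1 21C by 2.57 on the log2 scale (SE 0.386, edgeR adjusted p = 0.00058), where 48.9% of 8909 genes passed. The 3 control libraries held 31, 39 and 10 counts of ninaE. TrpA1 29C was at 1.87 over the control (edgeR adjusted p = 0.137). Rh5 moved the same way, at -1.22 in the control against TrpA1 21C (adjusted p = 0.0062, edgeR). With Rh2 and Rh5 as covariates the ninaE difference was -3.61 (SE 0.728, edgeR adjusted p = 0.0192), where 16.8% of genes passed. In a fit over all 72 libraries, whose spread includes the 7 high libraries, the call was lost. In other lines ninaE reached 0 counts, in replicate 2 of the R65H02 control and replicate 1 of R85C10 TrpA1 21C, which allows up to 0.427 and 0.386 CPM (3 counts, counting error only).

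In HC, inaD was at 6.64, 6.92 and 3.20 TPM in TrpA1 29C and at 8.75, 7.33 and 8.90 in TrpA1 21C. It fell by 0.93 (SE 0.302, edgeR adjusted p = 0.033), where 33.5% of genes passed. The call was lost without replicate 1 (0.098) or replicate 3 (0.15), and with Rh2 and Rh5 as covariates the inaD difference was 0.78. Of the genes around it, ninaA, a chaperone of ninaE opsin, fell by 2.27 (adjusted p = 0.008), and Rh2 ran from 97.8 to 294.3 TPM in TrpA1 29C and from 205.2 to 614.2 in TrpA1 21C.

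Rh6 in R85C10 was at 1.80, 4.60 and 0 TPM in TrpA1 21C, at 9.02, 5.70 and 9.23 in TrpA1 29C and at 7.75, 6.40 and 9.07 in the GAL4 control. The TrpA1 21C libraries lay below the others, and the difference between the TrpA1 groups was 1.86 (edgeR adjusted p = 0.0535, DESeq2 0.0079). The count of 0 in replicate 3 allows up to 0.419 CPM.

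Rh7, an opsin known from the brain itself and not among the 10 genes, was higher in the GAL4 control than in TrpA1 21C by 1.47 in HC, 1.38 in R21H11, 1.43 in R60F09 and 1.38 in R65H02 (edgeR adjusted p = 1.2e-05, 0.00012, 4.3e-05 and 1.4e-07). Unlike norpA, it kept the call with the length trend taken out, at 1.21, 1.09, 1.03 and 1.104. Among the 12 GAL4 control libraries of the 4 wake-promoting lines, none of the 10 genes differed between lines (edgeR), where 13.6% of 8785 genes did. At an unadjusted p under 0.05 the count was 1, norpA, and DESeq2 and limma each gave 0 after adjustment and 1 before.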

How the data were processed

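The authors deposited 2 tables of the 72 libraries: estimated counts per gene and TPM. Per the submitters' processing notes they come from kallisto 0.46.1; build and annotation are not given in the sources used here. Of the deposited estimated counts, 89.0% lie within 0.02 of a whole number. Counts were rounded. Columns were matched to samples by library name (0 unmapped). No replicate pair was a duplicate (smallest chi-square per gene 2.66).

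Genes were filtered with filterByExpr per fit, scaled with TMM and tested with the robust quasi-likelihood F-test of edgeR 4.0.16 in R 4.3.3, with Benjamini-Hochberg adjustment over all genes tested and a threshold of 0.05. Fits covered all 24 groups, the 6 undisturbed groups, the shaken groups with ZT0, each line alone (9 libraries), and the 4 wake-line GAL4 controls. Correlations used log2 CPM (prior count 2) centred on group means, with 100000 permutations in scipy 1.17.1. The length trend is a lowess curve (span 0.3) per library. The index is the mean log2 CPM of Gbeta76C, Ggamma30A, inaC, ninaC, ninaA, rdgC, rtp, stops, chp, eys, Pph13 and CarT.

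Alternatives were DESeq2 1.42.0, RLE scaling, no filter, a block for the replicate number, limma 3.58.1 on log2(TPM + 1), a 1.5-fold requirement, the length trend, the index, all 72 libraries in 1 fit, and leaving out each replicate. The Rh2 and Rh5 covariates, the fit without the 7 libraries (Rh5 over 5 times the median CPM), the length trend with the block and the test across lines were chosen only after the data had been seen. Fits were tested on simulated data. All members are named; other genes are named from fixed lists where they passed the test, or by likeness of profile. The members and lists were chosen with earlier results of these data known.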

Additional observations from a re-analysis of the deposited data

Results flagged for a closer look

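The difference between TrpA1 29C and TrpA1 21C varied between the 5 GAL4 lines for 2 of the 10 genes. This comparison joins the temperature shift with the activation of the neurons chosen by each line. For Rh6, TrpA1 29C against TrpA1 21C was at 1.86 in R85C10, -0.80 in R60F09, -0.87 in HC, -0.10 in R65H02 and -0.17 in R21H11 on the log2 scale, and a test of the difference over the 45 libraries gave an edgeR adjusted p of 0.0178. For norpA the values were -0.10, 0.36, 0.16, -0.17 and -0.13 in the same order, with an adjusted p of 0.0114 (edgeR). Of 9429 genes, 46.87% passed this test, so 2 of the 10 is no excess. Rh6 in R85C10 TrpA1 21C rests on 8, 19 and 0 counts. R85C10 also differs from the other lines in the length of the shift and the time of dissection. Against the GAL4 control none of the 10 genes passed, with norpA nearest at an adjusted p of 0.0598 (edgeR), where 38.02% of genes passed.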

How the results depend on the processing

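RLE scaling and no low-count filter changed no count of calls among the 10 genes. Under the others, the counts that moved by over 1.5 times were as follows, where the cause was not tested. Over zeitgeber time, 0 calls became 1 with limma, 4 with the index, 6 with the Rh2 and Rh5 covariates and 1 without the 7 libraries. Shaking gave 1 call, and 2 with DESeq2, 3 with limma, 0 with the 1.5-fold requirement, 0 with the length trend, 6 with the index, 5 with Rh2 and Rh5, 3 with all 72 libraries in 1 fit and 3 without the 7. TrpA1 29C against TrpA1 21C gave 2, and 4 with DESeq2, 1 with the 1.5-fold requirement, 0 with the index (edgeR, where 9 of 49 tests had an unadjusted p under 0.05) and 1 with all 72. Its split of 1 higher and 1 lower became 3 higher and 0 lower with limma and 0 higher and 3 lower with the length trend. TrpA1 29C against the GAL4 control gave 5, and 1 with the length trend, 8 with the index and 2 with all 72. The GAL4 control against TrpA1 21C gave 6, and 3 with the length trend and 12 with the index. Within 1.5 times, DESeq2 gave 7 and 8 and limma 4 and 7 in these comparisons with the control. Among the GAL4 controls, 0 became 2 with the index, and among the 24 groups 10 became 4 with limma and 6 without the 7, and, within 1.5 times, 7 with the index. Leaving out 1 replicate gave 7 to 8 calls among the 24 groups, 1 to 2 for shaking, 0 to 4, 3 to 5 and 3 to 8 for the 3 line comparisons, and 0 over zeitgeber time and among the controls. The share of all genes called also moved with the fit. Over zeitgeber time it was 15.1%, and 39% with limma, 15.5% with the index and 23.1% with Rh2 and Rh5. For 6 h of shaking it was 46.1%, and 12.6% with the length trend, 38.6% with the index and 43.8% with Rh2 and Rh5. Where no share stands beside a count, the count is not a result about the 10 genes.

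Same-numbered libraries correlated on average by 0.369 over the 45 pairs of the undisturbed groups, but the lowest pair was at 0.0548 and other fits averaged -0.079 to 0.0775, so the numbers were not taken to pair the samples. When the replicate number was fitted as a block, 3 genes passed over zeitgeber time, norpA (edgeR adjusted p = 0.0102), trpl (0.0204) and trp (0.0452), where 26.7% of genes passed. With the block, 7 passed with the index, 5 with Rh2 and Rh5, where trp lost its call (0.107), and 1 with the length trend, where 24.5%, 21.9% and 11.1% of genes passed. Shaking gave 7 with the index and block, 6 with Rh2 and Rh5 and block, and 0 with the length trend and block. For the lines, the index with the block gave 1 call for TrpA1 29C against TrpA1 21C and 12 for the control against TrpA1 21C, and the length trend with the block gave 1 and 3 in the comparisons with the control. Among the controls the index with the block gave 2.

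The median r over the 45 pairs, 0.553 with all 72 libraries, was 0.527 to 0.65 under the other scalings and with the block. Leaving out 1 replicate gave 0.160 to 0.747, the lowest without replicate 2, and leaving out the 7 libraries 0.318. With the length trend taken out, and with the block added to it, norpA reversed to 0.331 and 0.326 in R21H11 and to 0.084 and 0.0833 in R65H02 for TrpA1 29C against the control. For the control against TrpA1 21C it reversed to -0.0222 and -0.021 in R65H02, -0.095 and -0.0934 in HC, and -0.0566 and -0.0574 in R60F09. For TrpA1 29C against TrpA1 21C in R60F09 it reversed to -0.193 and -0.192. inaD in HC reversed to 0.78 with Rh2 and Rh5 and to 0.65 with the block added. Of the other single-gene values under alternatives, 73 kept their direction but lost the call and 311 kept both. Low opsin counts, with medians of 39 for ninaE and 14 for Rh3 in the 65 libraries, limit what could be detected there.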
